A study of Mus musculus with 16 samples.

Results

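The autophagy machinery was described in hippocampal microglia as 35 genes that build the autophagosome, chosen by symbol from the 24015 rows of the table, with earlier results of these data known. All 35 were present, and all 35 were among the 11579 genes abundant enough to be tested. Microglia, the resident macrophages of the brain, had been sorted from the hippocampus of C57BL/6 mice by CD11b and low CD45 on live cells. There were 6 samples at 20 months of age and 6 at 3 months. No genetic change or treatment is named for either age. The strain entries of aged samples 5 and 6 differ from that name in the last digit, and it is not stated if mice were pooled, so p-values reflect only the spread among samples, which may be technical.

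Autophagy encloses cytoplasm, organelles or aggregates in a double membrane and delivers them to the lysosome. A kinase complex starts the process, a lipid kinase complex marks the membrane with PI3P, lipid carriers extend it, and ubiquitin-like conjugation attaches ATG8 proteins to it, which cargo receptors then bind. In microglia this machinery is known for the breakdown of phagocytosed material and for restraint of inflammatory signalling. Much of its control acts on proteins and on flux, which RNA levels do not measure.

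None of the 35 genes passed the test for a difference between the ages, which was an adjusted p under 0.05 in limma over all tested genes, where 1.73% of genes passed (147 higher and 53 lower at 20 months). At an unadjusted p under 0.05 there were 3 of 35 genes, or 8.57%, against 10.8% of all tested genes. These were Wipi1, Atg101 and Ulk1. In 0 of the 35 did the samples of the ages fail to overlap, against 1.87% of all tested genes. The fold at 20 over 3 months lay above 1 in 17 genes and below 1 in 18, and the median log2 fold change was -0.00025, against 0.0016 over all tested genes. A missed threshold does not show equal levels, so the interval of each difference is given below. The 95% interval lay within 1.25-fold either way for 23 of the 35 genes, or 65.7%, against 38.7% of all tested genes. It lay within 1.5-fold either way for 34 of the 35, or 97.1%, against 74.3% of all tested genes, and the exception was Wipi1. These shares were not matched for level. Per kb of transcript, 26 of the 35 genes lay above the 50th percentile of tested genes with an annotated length. The shares therefore do not show that the members are steadier with age than other genes. In bulk RNA of sorted cells, fewer cells of a type and less RNA per cell cannot be told apart.

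**Figure D1:**
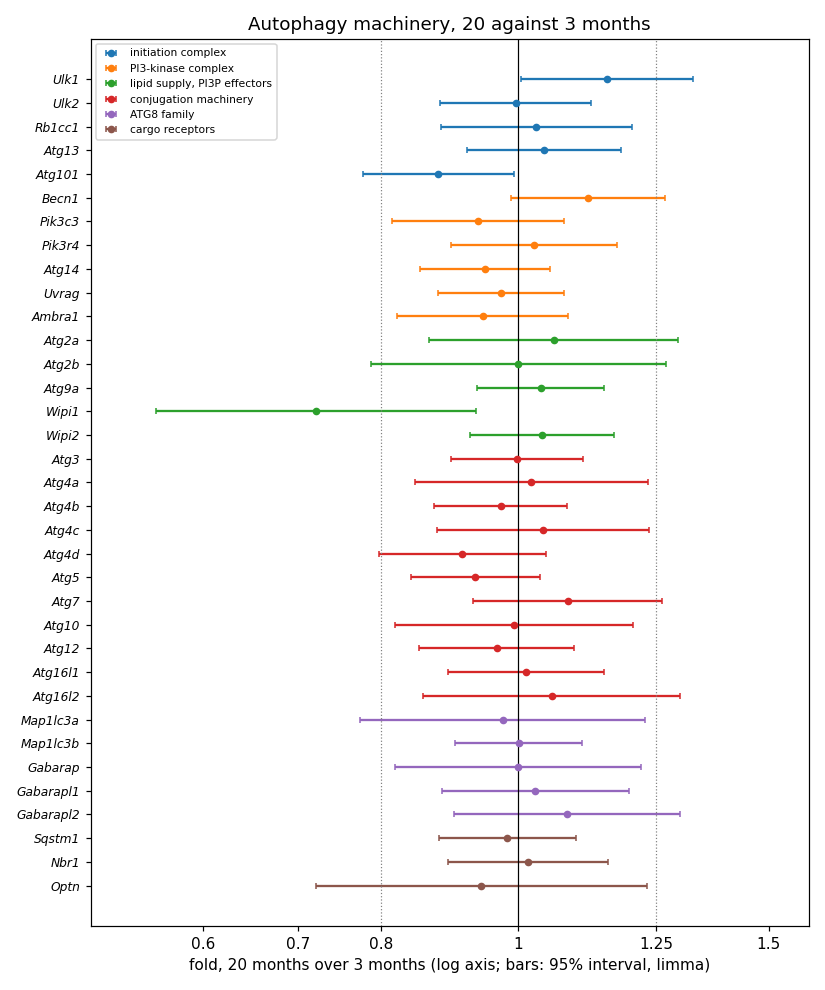
Fold at 20 over 3 months for the 35 autophagy genes, ordered by their step and drawn on a log axis, with 95% intervals from limma (n = 6 samples per age) and dotted lines at 1.25-fold either way. Wipi1, at 0.721-fold, lies farthest from 1, and the intervals of Wipi1, Atg101 and Ulk1 leave out 1, that of Ulk1 only just.

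The samples differed in depth more than in the totals of their normalized values. Recovered reads numbered 24.2 to 31.6 M in the 4 aged samples with 1 library and 11.4 to 47.3 M in the 4 young ones, while normalized totals spanned 26.3 to 27.3 M at 20 months and 26.4 to 27.9 M at 3 months. The 10 microglia markers summed to 62914 to 68792 CPM at 20 months, against 68701 to 74792 CPM at 3 months (exact two-sided permutation test, p = 0.0043, adjusted p = 0.016 over 11 lists). Monocyte markers summed to 4.10 to 5.86 CPM at 20 months, against 2.11 to 4.48 CPM at 3 months, with the same p and adjusted p. B or T cell markers summed to 27.5 to 34.9 CPM at 20 months, against 36.4 to 45.8 CPM at 3 months (exact p = 0.0022, the smallest this design can give, adjusted p = 0.016). The microglia and the B or T cell sums were thus lower and the monocyte sum higher at 20 months. The B or T cell sum was 99.1% Cd79b at 20 months and 99.3% at 3 months, so it is the level of 1 gene and not of the list. By limma 1 of the 10 microglia markers was lower and 0 of the 3 tested monocyte markers was called. The 1 tested B or T cell marker was called lower, and 1 of 4 tested astrocyte markers higher. Ccr2 made up 72.4% of the monocyte sum at 20 months and 74.8% at 3 months. The other 8 lists had adjusted p of 0.155 or more. Choroid plexus markers ranged from 16.1 to 130.7 CPM at 20 months, against 9.83 to 48.7 CPM at 3 months. The part of these shares in the autophagy values was not tested.

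Levels can be compared between genes only per transcript length, given here as normalized counts per kb. Such levels, and the shares within families, depend on the length used, here a median over transcripts, and their SDs do not cover that choice. For Gabarapl1 the median is 902 bases, against 1820 for the transcript chosen to stand for the gene. For Wipi2 it is 3565 bases, against 1959. Per kb, 26 of the 35 genes were above the 50th percentile of the 11042 tested genes with an annotated length, and 11 above the 75th. Sqstm1, the cargo receptor p62, was the most abundant, at 5245 ± 605 at 20 months and 5318 ± 322 at 3 months (SD, n = 6 each). Gabarap came next at 3319.6 ± 739 at 20 months and 3253 ± 311 at 3 months. Map1lc3b, which encodes LC3B, followed at 2820.2 ± 182 at 20 months and 2823 ± 238 at 3 months, and its SD overlapped that of Gabarap. The least abundant were Optn, at 50.8 ± 9.15 at 20 months and 54.2 ± 10.7 at 3 months, Atg16l2, at 53.7 ± 8.32 at 20 months and 50.8 ± 7.31 at 3 months, and Wipi1, at 62.8 ± 11.2 at 20 months and 88.1 ± 21.9 at 3 months. The genes of 1 step were therefore spread over a wide range of levels, and Optn and Atg16l2 differed by less than their SDs.

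**Figure D2:**
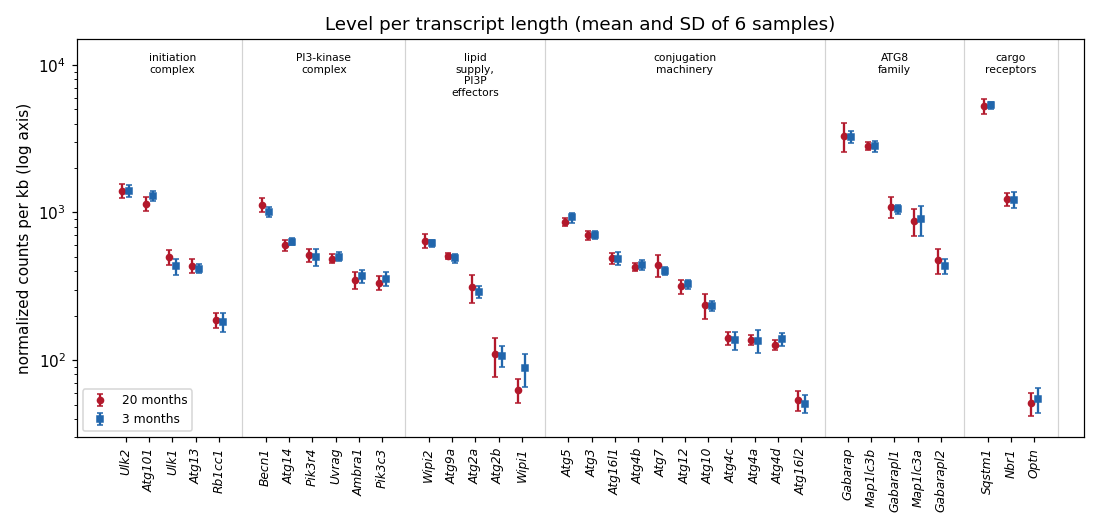
Level of each autophagy gene in normalized counts per kb on a log axis, grouped by step, with circles for 20 months, squares for 3 months, and bars for the SD of 6 samples. Sqstm1, Gabarap and Map1lc3b stand highest and Optn, Atg16l2 and Wipi1 lowest at both ages.

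The initiation complex joins the kinases Ulk1 and Ulk2 to the scaffolds Rb1cc1 (FIP200), Atg13 and Atg101. Ulk1 had a lowest, median and highest value of 1877, 2263 and 2463 normalized counts at 20 months, against 1616, 1851 and 2339 at 3 months. Its values overlapped, with aged samples 2 and 6 near the young median and young 2 among the aged values. The fold was 1.15-fold (95% interval 1.00 to 1.33, adjusted p = 0.438), and the adjusted p ranged from 0.219 to 0.693 over the alternatives. Atg101, which stabilises Atg13, had 1328, 1397 and 1726 normalized counts at 20 months, against 1474, 1639 and 1834 at 3 months. Aged 4 and 6 lay within the young values, and the other 4 aged samples lay below them. The fold was 0.878-fold (95% interval 0.777 to 0.992, adjusted p = 0.408), with 0.164 to 0.678 over the alternatives. Ulk2 averaged 8055 ± 890.3 normalized counts at 20 months and 8077 ± 761 at 3 months, at 0.995-fold (95% interval 0.881 to 1.13). Rb1cc1 averaged 1415 ± 163 normalized counts at 20 months and 1379 ± 202 at 3 months, at 1.03-fold (95% interval 0.882 to 1.20). Atg13 averaged 1554 ± 170.2 normalized counts at 20 months and 1487 ± 104 at 3 months, at 1.04-fold (95% interval 0.921 to 1.18). All 3 of these intervals held 1. Ulk2 made up 73.8 ± 1.29% of the Ulk kinase level per kb at 20 months and 76.5 ± 2.75% at 3 months, and the ranges of 72.5 to 76.0% and 73.2 to 81.2% overlapped.

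The lipid kinase complex holds the catalytic subunit Pik3c3 (VPS34), its regulatory subunit Pik3r4 and Becn1 (Beclin 1), with Atg14 or Uvrag as alternative partners and Ambra1 as an upstream regulator. Becn1 had a lowest, median and highest value of 1418, 1692 and 1943 normalized counts at 20 months, against 1399.7, 1473 and 1699 at 3 months. Aged 1 lay with the young samples, young 3 among the aged ones, and the ages overlapped. The fold was 1.12-fold (95% interval 0.988 to 1.27, adjusted p = 0.536), with adjusted p of 0.342 to 0.785 over the alternatives. Atg14 had 1959.8, 2147 and 2513 normalized counts at 20 months, against 2106, 2300.3 and 2419 at 3 months, at 0.947-fold (95% interval 0.852 to 1.05, adjusted p = 0.814). Its highest value was aged 5, above every young sample. Of the remaining members, Pik3c3 averaged 1029.6 ± 108 normalized counts at 20 months and 1099.7 ± 119 at 3 months, at 0.937-fold (95% interval 0.815 to 1.08). Pik3r4 averaged 2414 ± 239 normalized counts at 20 months and 2361 ± 309 at 3 months, at 1.03-fold (95% interval 0.896 to 1.17). Both intervals held 1 and stayed within 1.25-fold either way. The partner Uvrag averaged 2514 ± 171 normalized counts at 20 months and 2585 ± 178 at 3 months, at 0.972-fold (95% interval 0.878 to 1.08). Ambra1 averaged 1759 ± 229 normalized counts at 20 months and 1859 ± 187 at 3 months, at 0.944-fold (95% interval 0.822 to 1.08). The fold lay below 1 in 4 of these 6 genes, and the interval of 5 stayed within 1.25-fold either way.

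Membrane growth needs Atg9a, a lipid scramblase carried on vesicles, the lipid transfer proteins Atg2a and Atg2b, and the PI3P-binding proteins Wipi1 and Wipi2. Wipi1 had the fold farthest from 1 of the 35, with a lowest, median and highest value of 94.3, 127 and 157 normalized counts at 20 months, against 127, 176 and 263 at 3 months. Young 6 lay at the aged median and aged 5 and 6 near the lowest young samples, so the ages overlapped. The fold was 0.721-fold (95% interval 0.556 to 0.934, adjusted p = 0.284), and the adjusted p was 0.151 to 0.589 over the alternatives, the lowest of them without aged 5 and 6. Wipi1 is also among the least abundant members, and its share of the Wipi level per kb was 8.86 ± 1.35% at 20 months and 12.4 ± 2.58% at 3 months, with overlapping ranges of 7.58 to 11.4% and 8.79 to 16.5%. Wipi2, which recruits the Atg16l1 complex, averaged 2302 ± 257 normalized counts at 20 months and 2206 ± 119.6 at 3 months, at 1.04-fold (95% interval 0.925 to 1.17). Atg9a averaged 2057 ± 107 normalized counts at 20 months and 1987 ± 139.6 at 3 months, at 1.04-fold (95% interval 0.936 to 1.15). Neither interval left out 1. Atg2a averaged 1990.3 ± 431 normalized counts at 20 months and 1841 ± 175 at 3 months, at 1.06-fold (95% interval 0.865 to 1.30), and aged 6 held 1157 where the other aged samples held 1966 or more. Without aged 6 its log2 fold change was 0.23, against 0.08 over all 12 samples, with an unadjusted p of 0.013 and an adjusted p of 0.226 in limma, and the adjusted p was 0.226 to 0.981 over all alternatives. Atg2b averaged 825 ± 247 normalized counts at 20 months and 808 ± 134 at 3 months, at 1.000-fold (95% interval 0.787 to 1.27). On the 8 samples with 1 library the log2 fold change of Atg2b in limma was 0.12, against -0.00025 over all 12, and it was not called.

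**Figure D3:**
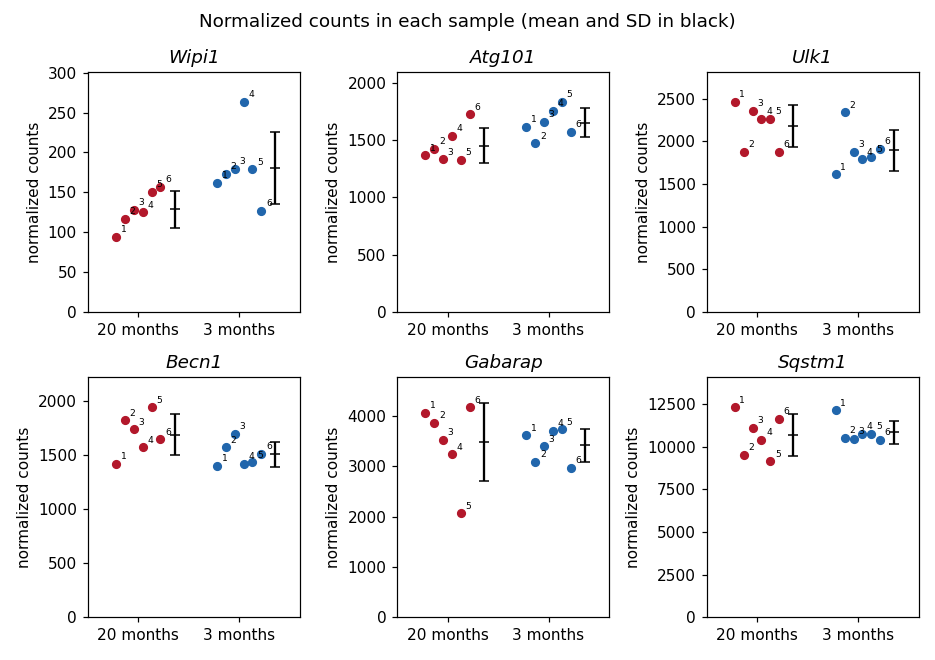
Normalized counts of 6 autophagy genes in each numbered sample, 20 months at the left and 3 months at the right, with the mean and SD in black and axes from 0. The ages overlap in all 6 genes, and aged 5 has the lowest Gabarap value, 2069.

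The conjugation machinery attaches ATG8 proteins to lipid. Atg7 is the activating enzyme, Atg3 and Atg10 carry ATG8 and Atg12, Atg12 joins Atg5, and Atg16l1 places this conjugate on the membrane. The Atg4 proteases prepare and recycle ATG8. Atg7 had a lowest, median and highest value of 868, 1089 and 1320.5 normalized counts at 20 months, against 887, 1026 and 1052 at 3 months. Its aged values spread more widely than its young ones, and the fold was 1.08-fold (95% interval 0.929 to 1.26, adjusted p = 0.810). Atg5 had 1892, 2001 and 2251 normalized counts at 20 months, against 1983, 2158 and 2404 at 3 months, at 0.933-fold (95% interval 0.840 to 1.04, adjusted p = 0.733). Among the young samples, young 1 and young 3 were the highest. Atg4d had 685, 740.3 and 855 normalized counts at 20 months, against 690.0, 818 and 934 at 3 months, at 0.913-fold (95% interval 0.798 to 1.04, adjusted p = 0.726). Its fold, like that of Atg5, was not called. The other 8 genes had adjusted p of 0.910 or more. Atg3 averaged 1447 ± 98.2 normalized counts at 20 months and 1449.7 ± 89.3 at 3 months, at 0.998-fold (95% interval 0.896 to 1.11). The carrier Atg10 averaged 372 ± 70.1 normalized counts at 20 months and 369.8 ± 29.9 at 3 months, at 0.993-fold (95% interval 0.818 to 1.20). Atg12 averaged 1503 ± 165 normalized counts at 20 months and 1552 ± 103 at 3 months, at 0.965-fold (95% interval 0.851 to 1.09). All 3 of these intervals held 1 and stayed within 1.25-fold either way. Atg16l1 held 90.2% of the Atg16 level per kb at 20 months and 90.5% at 3 months, and averaged 1528 ± 129 normalized counts at 20 months and 1513 ± 151 at 3 months, at 1.01-fold (95% interval 0.892 to 1.15). Its paralog Atg16l2 averaged 229 ± 35.6 normalized counts at 20 months and 217 ± 31.2 at 3 months, at 1.06-fold (95% interval 0.857 to 1.30). The paralogs thus kept a wide gap in level at both ages. Among the proteases, Atg4b, the main enzyme for LC3B, took 51.5 ± 1.83% of the Atg4 level per kb at 20 months and 51.9 ± 1.04% at 3 months. Its mean was 1792 ± 110.5 normalized counts at 20 months and 1846 ± 139.9 at 3 months, at 0.972-fold (95% interval 0.872 to 1.08). Atg4a averaged 301 ± 23.3 normalized counts at 20 months and 298 ± 53.6 at 3 months, at 1.02-fold (95% interval 0.846 to 1.23). Atg4c averaged 420.5 ± 41.8 normalized counts at 20 months and 406 ± 58.1 at 3 months, at 1.04-fold (95% interval 0.877 to 1.24). The interval held 1 for each of these 3 proteases.

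The ATG8 family coats the membrane and binds cargo receptors. Gabarap had a lowest, median and highest value of 2069, 3695 and 4172 normalized counts at 20 months, against 2964, 3506 and 3732 at 3 months, at 0.999-fold (95% interval 0.818 to 1.22, adjusted p = 0.999). Aged 5 was far below the other aged samples, which held 3238 or more, and without it the log2 fold change was 0.14, not called. Map1lc3b had 4256, 4684 and 5035 normalized counts at 20 months, against 4189, 4649 and 5237 at 3 months, at 1.00-fold (95% interval 0.902 to 1.11, adjusted p = 0.999). Its samples overlapped throughout. Map1lc3a had 649, 1014 and 1179 normalized counts at 20 months, against 751, 998 and 1322 at 3 months, at 0.975-fold (95% interval 0.774 to 1.23, adjusted p = 0.965), with aged 5 lowest and young 5 highest. Gabarapl1 had 779, 988 and 1181 normalized counts at 20 months, against 887, 943 and 1056 at 3 months, at 1.03-fold (95% interval 0.883 to 1.20, adjusted p = 0.942). Gabarapl2 had 581, 789 and 967 normalized counts at 20 months, against 599, 728 and 862 at 3 months, at 1.08-fold (95% interval 0.901 to 1.30, adjusted p = 0.858), again with aged 5 lowest. In each of the 5 genes the ages overlapped and the interval held 1. Per kb, Gabarap made up 38.3 ± 4.52% of the ATG8 level at 20 months and 38.5 ± 2.61% at 3 months, and Map1lc3b 33.4 ± 4.89% at 20 months and 33.4 ± 2.55% at 3 months.

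Of the cargo receptors, Sqstm1 and Nbr1 bind ubiquitinated proteins, and Optn also takes part in the removal of mitochondria and bacteria. Sqstm1 had a lowest, median and highest value of 9129.9, 10764 and 12312 normalized counts at 20 months, against 10384, 10639.5 and 12136 at 3 months, at 0.982-fold (95% interval 0.879 to 1.10, adjusted p = 0.949). Young 1 stood above the other young samples, and aged samples lay on both sides of them. Nbr1 had 4679.6, 5275 and 6343 normalized counts at 20 months, against 4538, 5264 and 5952 at 3 months, at 1.02-fold (95% interval 0.892 to 1.16, adjusted p = 0.962). Its aged and young values overlapped over most of their range. Optn had 85.5, 134 and 147 normalized counts at 20 months, against 86.7, 144 and 161 at 3 months, at 0.941-fold (95% interval 0.720 to 1.23, adjusted p = 0.932), the widest interval of the receptors. Sqstm1 made up 80.2 ± 3.10% of the level of these 3 receptors per kb at 20 months and 80.7 ± 1.76% at 3 months.

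In several samples the members' deviations followed transcript length, with either sign at both ages. The Spearman correlation, over 35 members, of a sample's log2 deviation from the 12-sample mean with transcript length was 0.55 in aged 5 and -0.69 in aged 6, against 0.69 in young 2 and -0.48 in young 4. Over 11042 tested genes it was 0.34 in aged 5 and -0.43 in aged 6, against 0.33 in young 2 and -0.28 in young 4. The points share a library, and no p is given. In aged 5 the 8 members under 2 kb had a median deviation of -0.30 and the 14 members of 4 kb or more of 0.17, and in aged 6 the values were 0.24 and -0.09. Across the members, the age log2 fold change had a correlation of 0.05 with length. Aged 5 held the highest value of the 12 samples in 7 members and the lowest in 7 others. With the length slope of each sample as a covariate, an alternative chosen after seeing the data, 0 members were called. Over all 11579 tested genes this fit called 195 higher and 95 lower at 20 months. The part of transcript length in the spread of samples was not tested further.

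**Figure D4:**
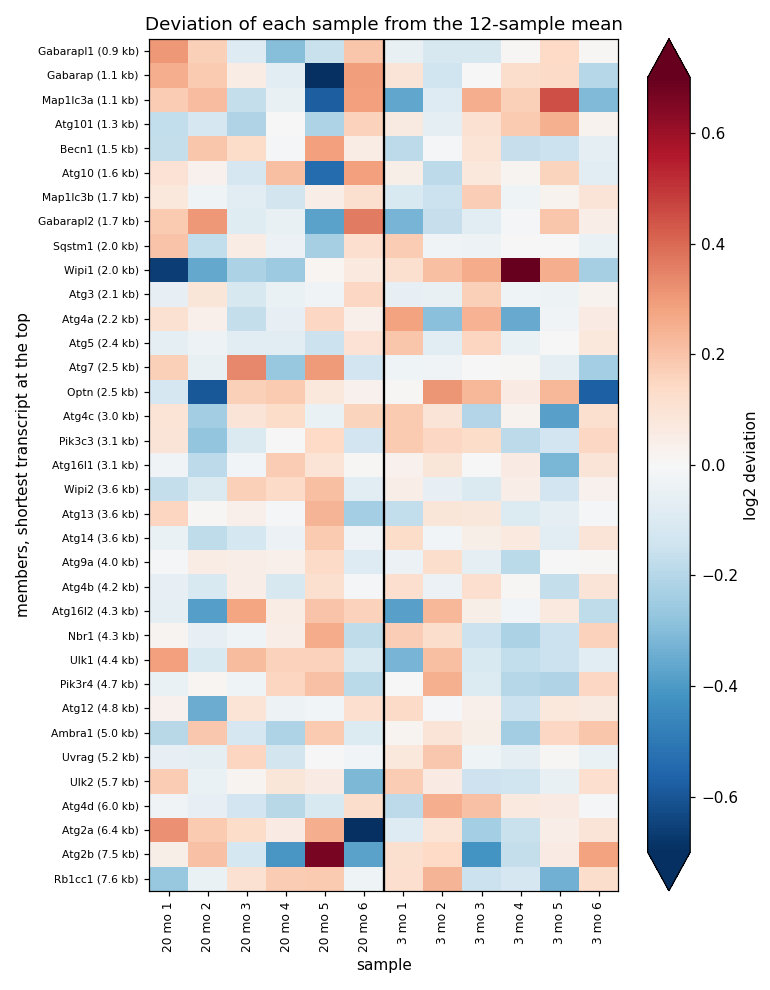
Log2 deviation of each sample from the 12-sample mean for the 35 members, with the shortest median transcript at the top and 20 months at the left. Aged 5 is low in the short members and high in the long ones, with medians of -0.30 under 2 kb and 0.17 at 4 kb or more.

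Some counts are uncertain in their source, in part since the libraries do not mark strand. More than 10% of the exon bases are shared with another gene in 6 members, as annotated in GENCODE on mm10. For Becn1 (11:101285952-101302286) the overlap is 43.9%, with Cntd1 on the other strand, which had a mean of 6.96 normalized counts at 20 months and 5.13 at 3 months. For Sqstm1 (11:50199366-50210827) it is 17.3%, with Mrnip, listed under an older symbol at 146 at 20 months and 230.2 at 3 months. For Atg9a it is 32.6%, in part with Ankzf1 on the other strand, at 889.6 normalized counts at 20 months and 911 at 3 months. Atg9a also overlaps Gm29253 on its own strand, which strand could not separate and which has no row of its own. For Atg4d it is 19.3%, with Kri1 on the other strand, at 217 at 20 months and 177 at 3 months. Ankzf1 and Kri1 are less far below their member than Cntd1 is below Becn1, but Becn1 has the largest shared part. How reads in shared exons were counted is not known, so the members were not ranked by uncertainty. The other 2 were Gabarapl1 and Uvrag. Processed pseudogenes of at least 95% identity number 4 for Map1lc3b and 3 for Gabarapl2, and Atg4a has the near copy Atg4a-ps. No row of the table carries these copies, so how their reads were counted could not be seen.

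Known regulators of autophagy genes include TFEB and its relatives TFE3 and MITF, which bind E-boxes with the core CACGTG, best within TCACGTGA. Promoters of 250 bases before to 50 after the start (RefSeq, GRCm38.p6) were matched for 29 of the 35 members. On both strands the core was found in 4 of 29 members, or 13.8%, against 8.09% of 27025 genes. TCACGTGA, which contains the core, was found in 1 member, or 3.45%, against 1.12% of genes. The antioxidant response motif TGACNNNGC, searched likewise, was found in Atg13, Map1lc3b and Ulk2, or 10.3%, against 14.0% of genes. The 4 stretches with the core are printed since they show where it lies, with the motif in capitals.
Atg14, chr14:47568403-47568462, minus strand: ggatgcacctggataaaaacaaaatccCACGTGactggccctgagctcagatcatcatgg
Atg3, chr16:45158731-45158790, plus strand: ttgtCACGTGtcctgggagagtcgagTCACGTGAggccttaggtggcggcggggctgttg
Atg5, chr10:44268298-44268357, plus strand: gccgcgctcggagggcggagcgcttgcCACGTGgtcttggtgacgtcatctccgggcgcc
Atg7, chr6:114670937-114670996, plus strand: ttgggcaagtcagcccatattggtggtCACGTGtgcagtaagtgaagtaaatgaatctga
Counted from the RefSeq start, the first base of the core lies at position -1 in Atg14, -14 in Atg5 and -132 in Atg7. Atg3 holds 2 copies, from -94 and -71, and the one nearer the start is the longer motif. In Atg3, Atg7 and Atg14 this RefSeq start lies inside the longer gene span that GENCODE annotates. That span starts at chr6:114643097 for Atg7 and, on the minus strand, at chr14:47570649 for Atg14, both outside the printed stretch. For Atg3 it starts at chr16:45158785, within the printed stretch. A match describes letters and not binding, and the 4 genes had folds of 0.947 for Atg14, 0.998 for Atg3, 0.933 for Atg5 and 1.08 for Atg7. The factors were chosen for mention after their values were seen. Tfeb averaged 1908 ± 162 normalized counts at 20 months and 1907 ± 321 at 3 months, at 1.01-fold (95% interval 0.871 to 1.17, adjusted p = 0.983). Tfe3 averaged 7452 ± 244 normalized counts at 20 months and 7667 ± 517 at 3 months, at 0.973-fold (95% interval 0.891 to 1.06, adjusted p = 0.905). Mitf averaged 516 ± 153 normalized counts at 20 months and 417 ± 43.8 at 3 months, at 1.19-fold (95% interval 0.924 to 1.54, adjusted p = 0.715). None of the 3 was called.

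Beyond the 35, 56 other autophagy genes in 5 lists were all tested, and 0 were called, against 1.73% of all tested genes, with 33 folds above 1 and 23 below. An unadjusted p under 0.05 was reached by 5 of the 56, or 8.93%, against 10.8% of all tested genes. The ages failed to overlap in 1 of the 56, or 1.79%, against 1.87% of all tested genes, a share near the background. That gene was Retreg1, a receptor for the turnover of endoplasmic reticulum that the table lists as Fam134b. It had a lowest, median and highest value of 3418, 3586 and 3699 normalized counts at 20 months, against 3903, 4163 and 4258 at 3 months, at 0.867-fold (95% interval 0.798 to 0.943, adjusted p = 0.0919), with adjusted p of 0.052 to 0.253 over the alternatives. It had the smallest p of 17 other cargo receptors. In the fusion of autophagosomes with lysosomes the smallest p of 15 was that of Snap29, a SNARE protein, with 1001, 1077 and 1227 normalized counts at 20 months, against 635, 883 and 1198 at 3 months, at 1.25-fold (95% interval 1.04 to 1.50, adjusted p = 0.315). Of 13 other genes of autophagosome formation it was Rubcn, encoding the inhibitor Rubicon and listed as 1700021K19Rik, with 1928, 2302 and 2764 normalized counts at 20 months, against 1687, 1826 and 2527 at 3 months, at 1.18-fold (95% interval 1.01 to 1.38, adjusted p = 0.400). Both folds lay above 1 and neither was called. Of 8 transcription factors it was Foxo3, a forkhead factor restrained by insulin signalling, with 35.9, 63.9 and 114 normalized counts at 20 months, against 29.5, 43.6 and 65.0 at 3 months, at 1.45-fold (95% interval 0.940 to 2.24, adjusted p = 0.578). The last list held 3 genes of chaperone-dependent autophagy, Lamp2, Hspa8 and Bag3. Its smallest p was that of Hspa8, the chaperone that selects cargo, with 14222, 17234 and 24225 normalized counts at 20 months, against 10329, 14344 and 22598 at 3 months, at 1.29-fold (95% interval 1.01 to 1.63, adjusted p = 0.412). The ages overlapped in each of these 4.

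Count tests gave the same absence of calls in the 8 samples whose whole reads could be recovered. Of the 35 members 0 were called by edgeR, against 0.786% of tested genes, and 0 by DESeq2, against 2.03%. An unadjusted p under 0.05 was reached by 4 of the 35 in each, Ulk1, Atg101, Atg5 and Atg2a, against 9.59% of tested genes in edgeR and 10.2% in DESeq2. Among the other 56 genes DESeq2 called 1, Tecpr1, a tether of autophagosomes and lysosomes, with a log2 fold change of 0.35 (DESeq2 adjusted p = 0.048), while limma over all 12 samples gave 1.14-fold (95% interval 0.983 to 1.32, adjusted p = 0.554). Over all alternatives its adjusted p was 0.0482 to 0.786.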

How the data were processed

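The authors' deposited table gives a signal per gene, normalized counts, for 24015 genes in 12 columns that stand for 16 libraries. Per the series' design text, sorted cells gave SmartSeq v4 and Nextera XT libraries, and after trimming STAR aligned the reads, samtools gave the count matrix and DESeq2 the authors' comparison. How the table was normalized is not stated there. The submitters' processing notes name mm10. The sources used here give neither the versions of these tools nor the annotation. In the deposited columns of the 8 samples with 1 library, 100% of values were whole multiples of 1 step within 0.01, so reads were recovered. The 4 samples with 2 libraries (aged 3 and 6, young 2 and 4) were not whole, and their depth is unknown. Samples were grouped by the age in the labels.

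To each normalized count 1 was added before taking log2, with no further scaling, so a fold change understates that of low genes. Genes with at least 10 normalized counts in 6 of 12 samples were tested in a two-sided limma test (version 3.58.1, R 4.3.3, trend on), with Benjamini-Hochberg adjustment over 11579 genes at 0.05. Adjusted p-values come from this fit unless another tool is named. The script was tested on simulated data. Alternatives were edgeR 4.0.16, DESeq2 1.42.0 or limma on the 8 samples with recovered reads, pseudocounts of 0.5 and 5, no filter or one at 50, quantile or total scaling, robust variances, a replicate block, leaving out each sample or aged 5 and 6, and a length covariate. Levels per kb use the median length of basic protein-coding transcripts in GENCODE vM21. Marker sums are CPM of the deposited values.

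The 35 members and the lists were chosen with earlier results of these data known. Values in every sample's range are given for called members, the 8 members with the smallest p, ATG8 genes and cargo receptors, means for the rest, and of other lists for called genes and the smallest p of each.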

Additional observations from a re-analysis of the deposited data

Results flagged for a closer look

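Each of the 70 groups of 6 samples (35 genes at each age) was screened for a sample far from the others by Dixon's ratio, which chance exceeds in about 1 in 20 groups, and 6 groups had such a sample. Atg2a was lowest in aged 6, at 1157 normalized counts, and the nearest sample of its age held 1966. Atg3 was highest in young 3, at 1622 normalized counts, and the nearest sample of its age held 1469. Atg7 was lowest in young 6, at 887 normalized counts, and the nearest sample of its age held 996. Atg12 was lowest in aged 2, at 1197 normalized counts, and the nearest sample of its age held 1483. Atg16l1 was lowest in young 5, at 1214 normalized counts, and the nearest sample of its age held 1516. Sqstm1 was highest in young 1, at 12136 normalized counts, and the nearest sample of its age held 10759.8. Atg12 is only just past the critical value.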

How the results depend on the processing

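Across 25 alternatives, 0 of the 35 members were called in each, where the main fit called 1.73% of all tested genes. The members' lowest adjusted p over the alternatives was 0.151 (Wipi1, without aged 5 and 6). The median log2 fold change of the members stayed between -0.039 and 0.019. The SD of the members' median between single samples of an age was 0.044. That SD is not the error of a difference between ages, so it does not show that these shifts are within the noise. Of 875 alternative values of members 83 changed sign, all uncalled, the largest being Atg2b at 0.15 with edgeR on the 8 samples with 1 library. Counts over all genes moved more than 1.5 times as follows. Genes higher at 20 months numbered 147, against 67 with limma and 76 with edgeR on the 8 samples. Genes lower at 20 months numbered 53, against 11 with limma and 15 with edgeR on the 8 samples, 30 with the replicate block, and 95 with the length covariate, which was chosen after seeing the data. The 8-sample fits have fewer samples by construction. DESeq2, a different test, called 184 higher and 51 lower genes on the same 8 samples. For none of these settings was the cause tested. Leaving out 1 sample gave 102 to 175 higher and 27 to 60 lower genes. The lower count moved more than 1.5 times without young 5 (27), young 6 (30), young 2 (32), and without aged 2, young 1 or young 4 (35 each). Other autophagy genes called numbered 0, and 1 with DESeq2 on the 8 samples. The replicate block (sample number as a block) gave 115 higher and 30 lower genes and no called member. Samples of the same number had correlations of -0.121 to 0.107, with 2 of 6 numbers best matched by their own. It is not stated if the numbers pair samples, and these 6 correlations, given without a test, cannot decide it. Depth is known only for the 8 samples, and the shallowest, young 1, has 11.4 M reads.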
